A study of Mus musculus with 2 samples.

Results

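Resident cardiac macrophages are long-lived macrophages of the heart muscle that renew themselves locally, take up dying cells and debris, and are usually told apart from monocyte-derived macrophages by a small set of surface receptors and enzymes. After myocardial infarction (MI) many of them are lost in the infarct while monocytes enter from the blood and become macrophages, so levels of these genes in a macrophage population follow both its makeup and its state. The 8 genes described here are Lyve1, Timd4, Folr2, Cd163, Mrc1, F13a1, Cbr2 and Maf. They were taken by name, whatever their values, from every deposited table that compared cells of both libraries of the study, 18 tables of cell clusters and 4 of fibroblast subclusters. Those tables name 15181 genes in all, and 7 of the 8 members have a value in at least 1 table. Timd4, which encodes a receptor for the phosphatidylserine of dying cells, is in none of the 22 tables and has no value here.

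The study sequenced RNA of single interstitial cells, the non-myocyte cells of the ventricle, captured in droplets, with 1 library for each of 2 genotypes. All mice carried PostnMCM, a tamoxifen-inducible Cre recombinase in the Postn locus that is active in fibroblasts turning into myofibroblasts, and the R26-eGFP reporter. The control library came from PostnMCM mice, and the second from Yapfl/fl;Wwtr1fl/+;PostnMCM mice, in which Cre can excise Yap1 from both alleles and Wwtr1 from 1. MI was made in mice 8 to 10 weeks old, all of them ate chow with 0.4 g/kg tamoxifen for the following 6 days, and per the labels the hearts were taken on day 6, where the study's text has day 7. Cre is driven in myofibroblasts and not in macrophages, so a value in macrophages compares cells beside myofibroblasts of either genotype. The sources used here do not say how many animals made up a library. No cluster table lists Yap1 or Wwtr1. In the 4 fibroblast subclusters the Yap1 log2 fold change ran from 0.04 to 0.31 and that of Wwtr1 from -0.30 to 0.15. The share of cells with Yap1 was higher in 3 of the 4 and lower in subcluster 4 (57.5% of control cells and 40% of the others). As neither gene was lower throughout, the second library is called by its label, the library labelled depleted. By staining, the study reported markedly less nuclear Yap and Wwtr1 protein in GFP-positive myofibroblasts of this genotype. The RNA values of whole subclusters do not measure that protein.

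Each table gives, for a gene, the share of cells of that cluster with the transcript counted in each library, printed here as a percent, and the authors' average log2 fold change with the control library as the base, so that a positive value is higher in the library labelled depleted. With 1 library per genotype there was no replicate, so no error, test or p-value is given, and every statement is about these 2 libraries. Cell numbers and depth are not in the tables for each cluster and library, so no interval is given for a share. A cluster table lists a gene only where its log2 fold change is at least 0.25 in size and its share is at least 25% in either library. A member missing from a cluster table thus has no value there, which is not the same as no expression. The fibroblast subcluster tables have no such limits.

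The study names clusters 0, 3, 11, 12 and 13 as macrophages and monocytes. Of 10 macrophage markers, 5 are listed in cluster 0 (Lyz2, Cd68, Cd14, Adgre1 and Mertk), where they were counted in 60.9% to 100% of control cells and 76.2% to 100% of those labelled depleted. Cluster 3 lists 5 of them as well, with Mertk lowest at 32.3% and 47.6%. In cluster 11 the complement genes C1qa, C1qb and C1qc were counted in 26.4% to 46.5% of control cells and 14.6% to 22.9% of the others, while Flt3, a gene of dendritic cells, was counted in 50% and 75%. Whether the cells of cluster 11 are macrophages was not tested, and its listings are counted below under the study's name. Cluster 12 lists Lyz2 alone, and cluster 13 lists Lyz2, Fcgr1, Cd14 and C1qb, the last in 52.6% and 26.8% of cells. The study's cluster numbers are used below.

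The members map to 6 chromosomes of the GRCm39 build, the build of the deposited files, in the GENCODE annotation. The receptor genes are Lyve1 (chr7:110448585-110462460, minus strand), Timd4 (chr11:46701620-46735177, plus strand), Folr2 (chr7:101489195-101506401, minus strand), Cd163 (chr6:124281606-124307560, plus strand) and Mrc1 (chr2:14234151-14336926, plus strand). The enzyme genes are F13a1 (chr13:37051152-37234277, minus strand) and Cbr2 (chr11:120620312-120622940, minus strand), and Maf (chr8:116409632-116434579, minus strand) encodes a transcription factor. The counts fall on whole genes, as the tables do not separate exons, introns or untranslated regions. RefSeq promoter windows were at hand for Timd4, Folr2, Cd163, Mrc1, F13a1 and Cbr2, and not for Lyve1 or Maf.

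The stretches before the starts of Cd163, Mrc1, Folr2 and Cbr2 are shown because these are the members with a window that were higher together in cluster 0. They come from the RefSeq promoter table (GRCm38.p6), each matched 1 place in GRCm39, and run 5′ to 3′ on the gene's strand up to the base before the GENCODE start. They lie at chr6:124281360-124281605, chr2:14233975-14234150, chr7:101506402-101506647 (the more upstream of 2 RefSeq starts) and chr11:120622941-120623097. Capitals mark GAGGAA, the PU box bound by the myeloid factor PU.1, or TGCTGA, part of the MAF recognition element, on either strand (TTCCTC and TCAGCA on the other).
Cd163: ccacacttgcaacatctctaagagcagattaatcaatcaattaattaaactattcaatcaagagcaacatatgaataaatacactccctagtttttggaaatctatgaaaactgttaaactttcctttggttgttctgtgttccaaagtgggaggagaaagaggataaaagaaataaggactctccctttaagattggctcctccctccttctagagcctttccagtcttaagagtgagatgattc
Mrc1: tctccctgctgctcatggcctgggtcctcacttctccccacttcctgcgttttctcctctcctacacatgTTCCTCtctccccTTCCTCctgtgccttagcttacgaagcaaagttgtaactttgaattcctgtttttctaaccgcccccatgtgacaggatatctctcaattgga
Folr2: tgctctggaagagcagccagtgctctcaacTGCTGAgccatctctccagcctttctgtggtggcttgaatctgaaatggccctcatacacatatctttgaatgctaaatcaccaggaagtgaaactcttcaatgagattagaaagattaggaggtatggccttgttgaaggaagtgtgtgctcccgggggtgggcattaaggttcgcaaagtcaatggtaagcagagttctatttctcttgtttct
Cbr2: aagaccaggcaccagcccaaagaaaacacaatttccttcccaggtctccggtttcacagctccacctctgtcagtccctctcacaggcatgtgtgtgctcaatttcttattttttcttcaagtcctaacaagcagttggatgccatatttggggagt

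Within the 250 bases before each RefSeq start, the Mrc1 window holds 3 PU boxes, all on the other strand, of which 2 fall in the stretch shown. The Cbr2 window holds 1 PU box, 79 bases before the RefSeq start and inside the GENCODE gene, so it is not shown. The upstream Folr2 window holds TGCTGA 1 time, 220 bases before the start. The window of the other Folr2 start also holds it, 19 bases before that start, and is not shown. Neither motif is in the Cd163 window, which says only that these letters are not there. Of all 32851 promoter windows of that length, 23.3% hold a PU box and 16.1% hold TGCTGA on either strand, so a match in a window is common. The whole MAF recognition element was not searched for.

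Members were listed 14 times in the 18 cluster tables, 13 of them in 4 of the 5 macrophage tables. In those 13 listings the member was higher in the library labelled depleted 10 times and lower 3 times, beside 55.1% higher among the 3554 listings of all genes in the 5 tables. In 4 of the 13 the gene passed the 25% limit only in the library where it was high, so its direction was largely fixed by the limit. These were Lyve1 in cluster 0, Folr2 and Cbr2 in cluster 3, and F13a1 in cluster 11. The other 9 listings were 7 higher and 2 lower. Mrc1, F13a1 and Maf were at least 0.25 higher in some table and at least 0.25 lower in another, fibroblast subclusters included, as were 55.9% of all 6477 genes named in a cluster table. All 10 higher listings were in clusters 0, 3 and 13, and both listings of cluster 11 were lower. Cluster 12 lists no member. Among the 13 tables of other cells, the only listing was Maf in cluster 7, which the figures of the study name as regulatory T cells, and it was lower.

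Cluster 0 held the largest set of members. All 6 listed members, Lyve1, Cbr2, Folr2, Mrc1, Maf and Cd163, were higher in the library labelled depleted, with a median log2 fold change of 0.46. Without Lyve1, which passed the share limit in the library labelled depleted alone, the other 5 had a median of 0.45. Of all 923 genes listed for that cluster, 61.6% were higher, with a median of 0.28, so the members stood beside a table that leaned the same way. Timd4 and F13a1 are not listed there.

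Within cluster 0, the receptors held both the largest and the smallest value of the listed members. Lyve1, which encodes a receptor for the matrix sugar hyaluronan and also marks lymphatic endothelium, was counted in 12.9% of control cells and 32% of cells of the library labelled depleted. Its log2 fold change of 1.29 was the largest of any member in any table and the fifth highest of the 923 genes. Lyve1 was thus the rarest of the listed members in both libraries and the one that differed most.

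Lymphatic endothelial cells also carry Lyve1, and 1 of 6 markers fixed for them is in the cluster 0 table. That marker is Pdpn, which fibroblasts and some macrophages carry too, and it ran the other way, at 27.1% of control cells and 9.6% of the others (log2 fold change -0.30). Prox1, Flt4, Mmrn1, Ccl21a and Reln are not listed in any of the 5 macrophage tables and have no value there. The part of lymphatic endothelial cells in the Lyve1 value was not tested.

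Mrc1, the mannose receptor CD206, was counted in 67.2% of control cells and 81.5% of cells of the library labelled depleted, with a log2 fold change of 0.45. Folr2, folate receptor beta, was counted in 75% and 86.3%, with a log2 fold change of 0.47. Cd163, the scavenger receptor that clears haemoglobin bound to haptoglobin, was counted in 30% and 39.9%, and its log2 fold change of 0.32 was the smallest of the 6. For these receptors most control cells of the cluster already had Folr2 and Mrc1 counted, whereas Cd163 was found in a minority of cells in either library.

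Cbr2, a carbonyl reductase, was counted in 57.7% of control cells and 67% of the others. Its log2 fold change of 0.57 was the second of the members, although its share moved by 9.3 percentage points, the least of the 6. Maf, which encodes the transcription factor c-MAF, was counted in 81.1% and 91.9%, with a log2 fold change of 0.45. The order of the 6 by share of cells was the same in both libraries, from Maf through Folr2, Mrc1, Cbr2 and Cd163 down to Lyve1.

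Cluster 3 listed 3 members, Folr2, Cbr2 and Maf, all of them higher, but only Maf passed the share limit in both libraries. Of the 359 genes listed for that cluster, 60.4% were higher. Folr2 was counted in 16% of control cells and 30.5% of the others (log2 fold change 0.42), and Cbr2 in 16.7% and 29% (0.41). Both genes were therefore much rarer than in cluster 0, where they were counted in most cells. Maf was counted in 62.4% and 71.4% (0.38). Lyve1, Cd163, Mrc1 and F13a1 are not listed for cluster 3.

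**Figure D1:**
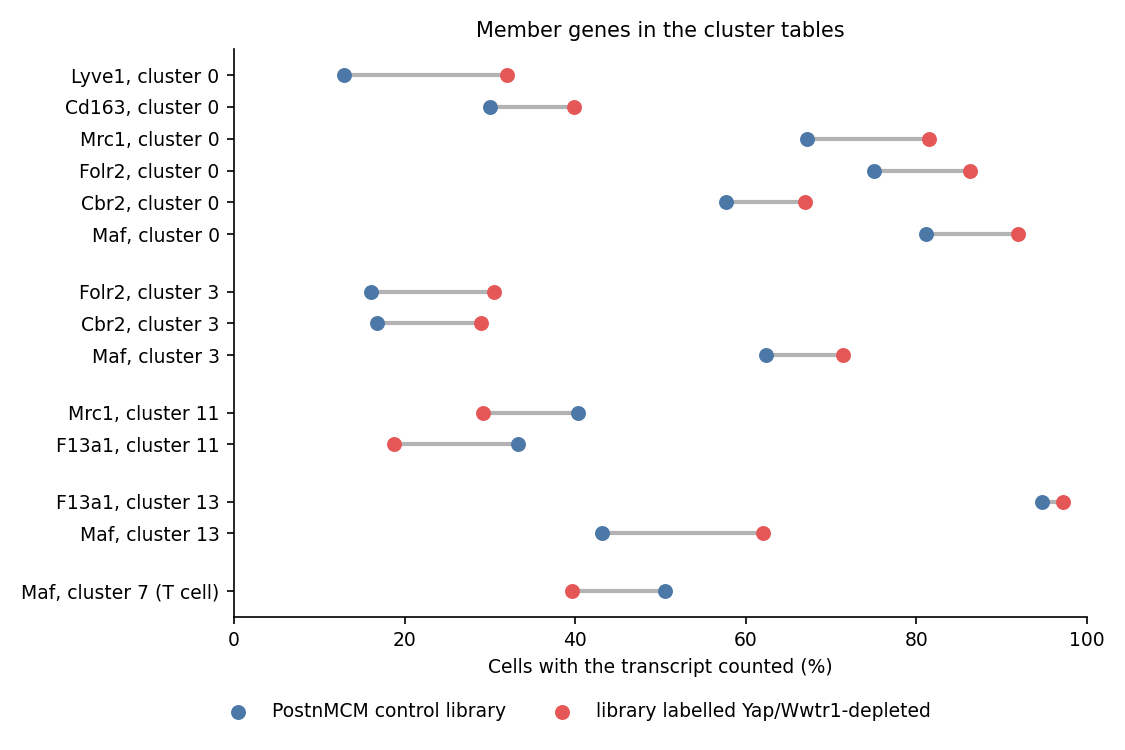
Percent of cells with each member counted (x axis) for every listing of a member in the cluster tables (rows). Blue points are the PostnMCM control library, red points the library labelled depleted, 1 library each and without error bars, and the red point lies to the right in all 9 rows of clusters 0 and 3 and to the left in both rows of cluster 11 and in cluster 7.

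Clusters 11 and 13 did not follow the same pattern. In cluster 11, F13a1, the A subunit of coagulation factor XIII that monocytes and macrophages make, was counted in 33.3% of control cells and 18.8% of cells of the library labelled depleted, a log2 fold change of -1.07. Mrc1 was counted in 40.3% and 29.2% there, with -0.58. Lower values were also the more common direction in the table as a whole, at 53.5% of 729 genes. In cluster 13, F13a1 was counted in nearly every cell, 94.7% and 97.2%, yet its log2 fold change was -0.29, so that share and fold change pointed in opposite directions. Maf was counted in 43.2% and 62% of cluster 13 cells, with a log2 fold change of 0.58, in a table where 59.1% of 893 genes were higher.

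Markers of other cells moved beside these values. All 5 neutrophil markers (S100a8, S100a9, Retnlg, Csf3r and Cxcr2) are listed in cluster 11 and all were lower in the library labelled depleted, with S100a8 at -2.99, and their shares summed to 234.7 points in the control library and 93.7 in the other. The 7 macrophage markers listed there were lower as well, from -0.25 for Fcgr1 to -2.15 for Lyz2, whereas Flt3 was higher at 0.53. In cluster 0, 3 of the 5 macrophage markers listed were lower (Lyz2 at -0.72, Cd14 at -0.39 and Cd68 at -0.27) while Adgre1 and Mertk were higher. There, 2 of the 5 neutrophil markers are listed, both lower, with shares summing to 123.1 and 54.6 points. In cluster 3 the same 2 are listed, both lower, summing to 109.2 and 50.6 points, together with the collagen gene Col3a1 at 41.5% and 26%. Of the 5 macrophage markers listed in cluster 3, 4 were higher, Cd14 the most at 0.46, and Lyz2 was lower at -0.47. In cluster 13, 3 neutrophil markers are listed, S100a8 higher and S100a9 and Csf3r lower, summing to 166.3 and 128.2 points, while among macrophage markers Cd14 was at 2.40 and Lyz2 at -1.36. No listed marker was at 0 in any of these tables, and the part of neutrophil or fibroblast RNA in the members' values was not tested.

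Maf was the only member listed outside macrophages. In cluster 7 it was counted in 50.5% of control cells and 39.6% of the others, with a log2 fold change of -0.60, in a table where 70.8% of 421 genes were lower. c-MAF is known in regulatory and helper T cells, and this cluster had Cd3d and Cd3g in 95% to 96.9% of cells of both libraries. Both were listed lower, as Maf was, at -0.26 and -0.33. Natural killer genes were higher there (Nkg7 in 58.6% of control cells and 82.4% of the others), and S100a8 and S100a9 were lower, as was Col3a1. Their part in the Maf value was not tested. Maf was thus higher in the 3 macrophage clusters that list it and lower in the T cell cluster that lists it, a difference that could not be tested with these libraries.

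**Figure D2:**
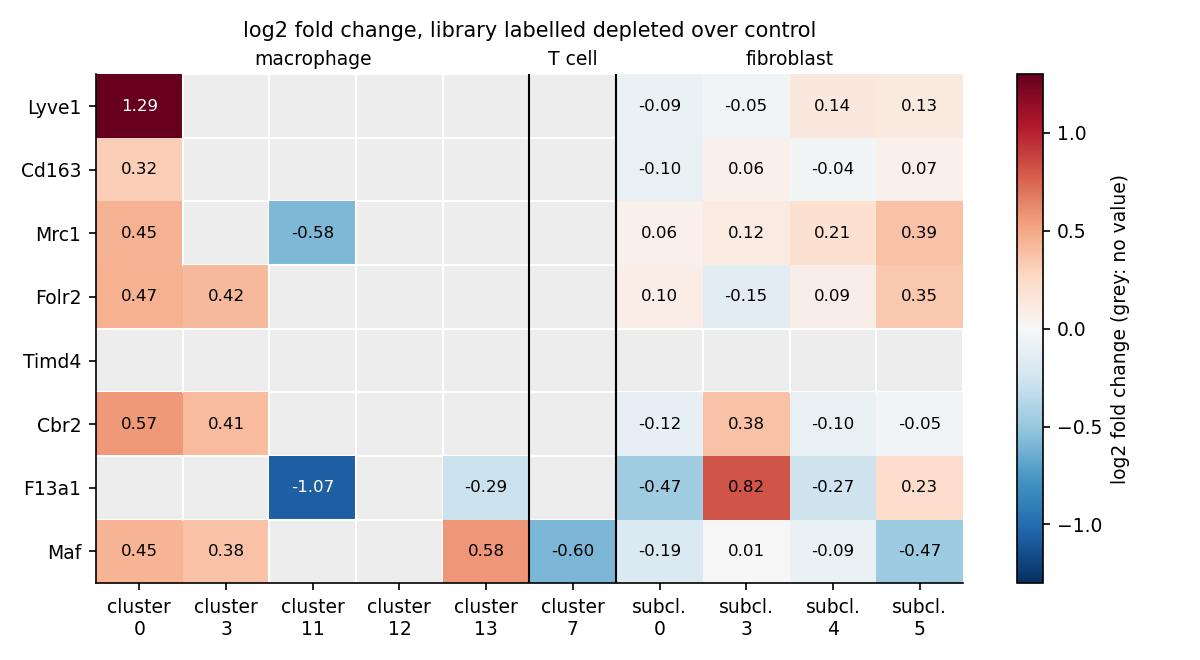
Log2 fold change (control library as the base) for the 8 members (rows) in the 5 macrophage clusters, T cell cluster 7 and the 4 fibroblast subclusters (columns). Red is higher and blue lower in the library labelled depleted, grey means that the table gives no value, and the darkest cells are Lyve1 in cluster 0 (1.29) and F13a1 in cluster 11 (-1.07).

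Fibroblasts give the background for these shares, because they are not known to carry most of these receptors and their 4 subcluster tables list 7 members without limits. Droplet libraries hold free RNA from broken cells, and macrophage transcripts were counted in many fibroblasts. C1qa was counted in 50% to 80% of cells over the subclusters and libraries, and Lyz2 in 47.6% to 90%. The C1qa shares of cluster 11, 31.2% of control cells and 22.9% of the others, lay below that range. All 10 macrophage markers are in the subcluster tables, and their shares there summed to 373.8 to 482.5 points in the control library and 261.9 to 382.4 in the other. Whether free RNA, cells caught together or expression by fibroblasts gave these counts was not tested. The subclusters were normalized apart from the clusters, and their depths per library are not in the tables, so shares are set side by side only.

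Members other than Maf were at low shares in these fibroblasts. Cd163 was counted in 0% to 4.8% of cells, Lyve1 in 0% to 14.3%, Mrc1 in 12.5% to 20%, Folr2 in 8.7% to 30%, Cbr2 in 3.1% to 26.1% and F13a1 in 3.3% to 26.1%. In cluster 0, Folr2, Mrc1, Cbr2 and Cd163 were above these ranges in both libraries. Lyve1 was above the analysed fibroblast subclusters of its own library in both. It was at 12.9% beside at most 6.2% in the control library, and at 32% beside at most 14.3% in the other. Its 12.9% of control cells was below the 14.3% of subcluster 5 in the library labelled depleted. In cluster 3, the Folr2 and Cbr2 shares of control cells (16% and 16.7%) lay within the fibroblast ranges and those of the library labelled depleted (30.5% and 29%) lay just above them. In cluster 11, Mrc1 was above its fibroblast range in both libraries, while F13a1 was above it in control cells only. In subclusters 0, 3, 4 and 5, shares took 33, 24, 11 and 22 distinct values in the library labelled depleted. In the control library they took 146, 31, 41 and 24. The fibroblast ranges thus move in coarse steps, most of all in the library labelled depleted. They also leave out the subcluster that the study reports as derived mainly from that genotype.

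**Figure D3:**
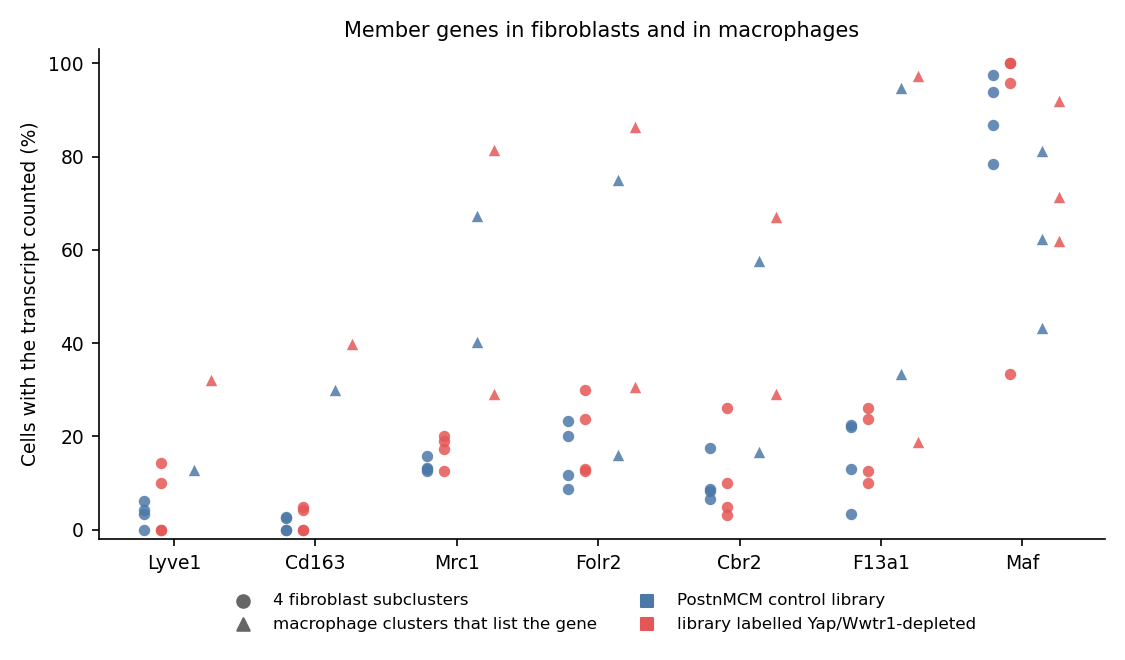
Percent of cells with each member counted (y axis) in the 4 fibroblast subclusters (circles) and in the macrophage clusters that list the gene (triangles), in the PostnMCM control library (blue) and the library labelled depleted (red). Circles stay at or below 30% for 6 members and reach 100% for Maf, and cluster 0 gives the highest triangles of Folr2, Mrc1 and Cbr2.

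Between libraries, members in fibroblasts showed no common direction. Of 28 values, 15 were higher and 13 lower in the library labelled depleted, and 21 were within 0.25 of 0 on the log2 scale. A value of at least 0.25 was found 4 times upward and 3 times downward, beside 11.6% upward and 11% downward over all 60236 gene values of the 4 tables. Among gene values with a share of at least 10% in either library, the percentages were 14.9% and 14.2%, and the members had the same 4 and 3 of 20.

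The 7 larger values came from F13a1, Cbr2, Mrc1, Folr2 and Maf. F13a1 was counted in 3.3% of control cells and 26.1% of the others in subcluster 3, named proliferating myofibroblasts by the study, with a log2 fold change of 0.82. Cbr2 was counted in 6.7% and 26.1% there (0.38), whereas Folr2 was at -0.15 (23.3% and 13%). In that subcluster all 10 macrophage markers had a positive log2 fold change, with C1qa at 1.45 and Lyz2 at 1.75, although Lyz2 was counted in 80% of control cells and 47.8% of the others. In subcluster 5, the matrix-producing myofibroblasts of the study, Mrc1 was at 0.39 (13% and 19% of cells) and Folr2 at 0.35 (8.7% and 23.8%), with 8 of 10 macrophage markers positive, C1qa at 1.05. F13a1 was lower in subcluster 0 at -0.47 (22.1% and 12.5%), where 4 of 10 macrophage markers were negative (Lyz2 at -1.83) and 6 positive (C1qa at 0.53), and in subcluster 4 at -0.27 (22.5% and 10%), where 9 of 10 macrophage markers were negative. Of the 7 larger values, those of F13a1, Cbr2, Mrc1 and Folr2 in subclusters 3, 4 and 5 had the sign of most macrophage markers there. Maf in subcluster 5 (-0.47) had the opposite sign, and F13a1 in subcluster 0 had the sign of the minority. The part of macrophage RNA in them was not tested.

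Maf behaved unlike the other members in fibroblasts. It was counted in 93.8% of control cells and 100% of the others in subcluster 0, in 86.7% and 95.7% in subcluster 3, and in 97.5% and 100% in subcluster 4, with log2 fold changes between -0.19 and 0.01. In subcluster 5 it was counted in 78.3% of control cells and 33.3% of the others, with a log2 fold change of -0.47. That was the largest difference in share of any member in any table, 45 percentage points, in a table where the shares of all 15059 genes took only 24 distinct values in the control library and 22 in the other. In subcluster 4 they took 41 and 11. Shares in these subclusters thus move in coarse steps. In subcluster 5 the 4 T cell markers listed were all higher, with shares summing to 17.3 points in the control library and 90.5 in the other. The 5 neutrophil markers had positive log2 fold changes there, with shares summing to 208.7 and 142.8 points. The part of other cells in the Maf value was not tested. The Maf shares in the other fibroblast subclusters were above those of macrophage cluster 0 in both libraries, so by shares of cells Maf did not set macrophages apart from fibroblasts.

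The other genes of tissue macrophages were read from a list of 20, which holds the complement genes, receptors such as Mertk and secreted factors such as Selenop. In cluster 0, 7 of them are listed, 6 higher and 1 lower, with a median log2 fold change of 0.30, beside 61.6% higher and a median of 0.28 for the whole table. Fcna, the soluble lectin ficolin A, was at 0.58 (55.3% and 64.9% of cells), Mertk, the receptor kinase for engulfing dying cells, at 0.41 (60.9% and 76.2%), and Selenop, selenoprotein P, at 0.39 (81.1% and 96%). Pf4, a chemokine of platelets and macrophages, was lower at -0.40 (88.2% and 79.7%). C1qa, C1qb, C1qc, Vsig4 and Stab1 are not listed for cluster 0 and have no value there.

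A second list held 14 genes of recruited monocytes and of lipid-associated macrophages, which arise when macrophages take up debris. In cluster 0, 11 of them are listed, 4 higher and 7 lower, with a median of -0.56. Spp1, which encodes osteopontin, was at -1.63 (84.5% and 51.8% of cells), and Vcan, versican, at -0.76 (38.3% and 17.3%). Fabp5, a fatty acid binding protein, was at -0.68 (56.5% and 40.8%), and Lgals3, galectin-3, at -0.63 although it was counted in 97.4% and 97.7% of cells. Ccr2, the receptor that marks recruited monocytes, was among the 4 higher genes at 0.30 (58.8% and 60.9%), so the list was mixed.

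**Figure D4:**
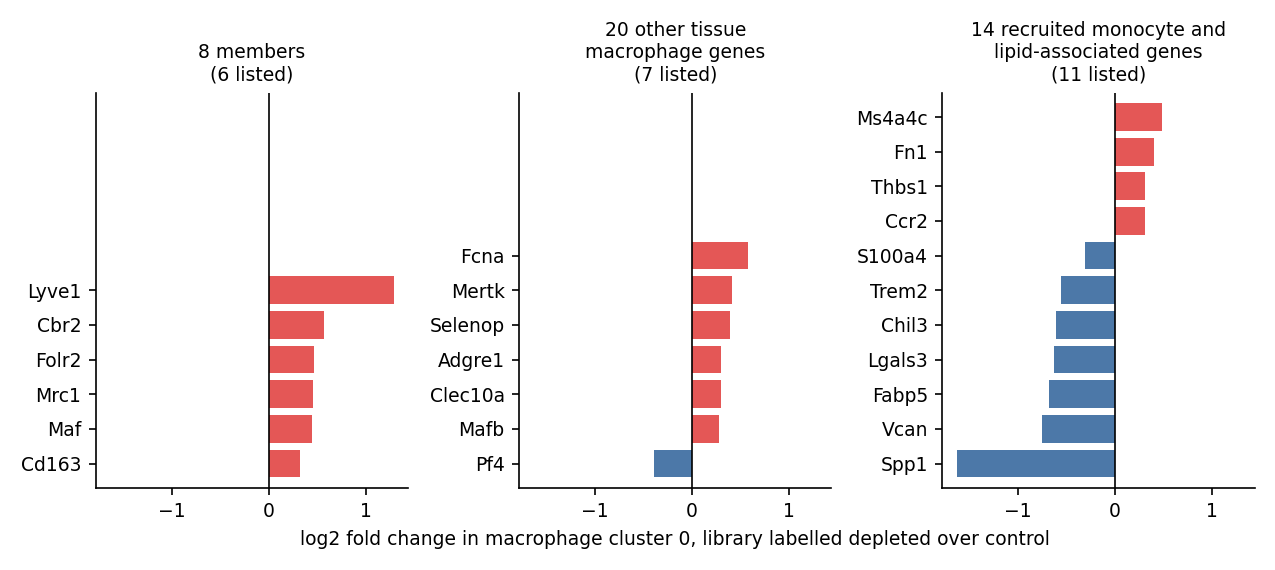
Log2 fold change in macrophage cluster 0 (x axis), library labelled depleted over control, for the listed genes among the 8 members, the 20 other tissue macrophage genes and the 14 recruited monocyte and lipid-associated macrophage genes. Red bars are higher and blue bars lower in the library labelled depleted, and the 6 members all point right, while 7 of 11 genes of the third list point left.

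Neither list kept these directions in every other macrophage cluster. In cluster 3 the tissue list had 4 genes higher and 3 lower and the monocyte list 6 higher and 4 lower. Both splits were near that of all genes listed there, 60.4% higher. Cluster 11, whose macrophage name was not tested, had 2 and 7 of the tissue list, with C1qb at -1.22, and 3 and 8 of the monocyte list. Of all genes listed there, 53.5% were lower. Cluster 12 listed 1 tissue gene, Hpgd, an enzyme that breaks down prostaglandins, at 1.61 (15.6% and 50.6% of cells), and had 2 monocyte genes higher and 4 lower. Of all 650 genes listed there, 305 were higher and 345 lower. In cluster 13 the tissue list had 3 higher and 2 lower and the monocyte list 5 higher and 3 lower, near the 59.1% higher among all genes listed there. Spp1 was at 4.20 in that cluster although it was counted in 37.9% of control cells and 33.8% of the others. Trem2, which is in the monocyte list, was lower in clusters 0, 3, 11 and 12, while Chil3 was lower in all 5 macrophage clusters. Chil3 was also lower in all 10 tables of other cells that list it, among them the fibroblasts of cluster 5 (29.9% and 0.5% of cells), so its value is not particular to macrophages.

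The genes whose values were most like those of Folr2 were sought among the 239 other genes listed in both clusters that list it. By the mean absolute difference of log2 fold change over these 2 tables, the closest were Plekho2 (0.02), Dusp1 (0.02), Marcksl1 (0.03), Zbp1 (0.03) and Ms4a4c (0.03). Ms4a4c, a gene of monocytes that is in the second list, was at 0.48 in cluster 0 and 0.47 in cluster 3, beside 0.47 and 0.42 for Folr2. The likeness rests on 2 tables from the same pair of libraries and is a description.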

How the data were processed

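Interstitial ventricle cells were sequenced on the 10x Chromium system (V3.1). Per the labels and the study's methods, the authors aligned reads with Cell Ranger 6.1.1 to GRCm39 with added reporter sequences, joined the libraries as they were without equalizing depth, filtered and clustered cells in Seurat, and normalized with SCTransform while regressing out mitochondrial content. No doublet caller is named in the sources used here. The tables hold no cells, so barcodes shared by libraries could not be counted.

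The deposited fraction of cells with a count above 0 was used as a percent. The deposited log2 fold change, taken on the mean corrected count plus a pseudocount of 1, is the authors' own comparison and was used because the member rule asks for it. The pseudocount understates changes of low genes. Deposited p-values, computed by the authors over cells, were not used. Cluster 16 and subclusters 1 and 2 were not analysed here.

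All 8 members were looked up in every table. The members and lists were chosen with earlier results of these data known. Groups follow the labels, with 1 library each, so no test was made. Up to 4 genes of each list with the largest size in cluster 0 were named. A gene of the second list is not reported here and was left out of its counts. Further genes were named as exceptions after their values were seen. Alternatives were a stricter size or share limit, the log2 ratio of shares (1 percentage point added), centring on each table's median, and other sets of clusters. Counting was tested on simulated data. Python 3.11.15 and pandas 2.3.3 were used.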

Additional observations from a re-analysis of the deposited data

Results flagged for a closer look

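Of the 7 members with values, 3 were at least 0.25 higher on the log2 scale in some population and at least 0.25 lower in another, as were 55.9% of the 6477 genes named in any cluster table, so opposite signs were common. Mrc1 was at 0.45 in macrophage cluster 0 and at -0.58 in cluster 11. F13a1 was at 0.82 in fibroblast subcluster 3 and at -1.07 in cluster 11. Maf was at 0.58 in cluster 13 and at -0.60 in T cell cluster 7. Each direction was seen in the only library pair there is, so the difference between populations was not tested.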

How the results depend on the processing

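No paired analysis was possible because a genotype had a single library and no test was run, and no library could be left out. In the macrophage cluster tables the 10 higher and 3 lower listings became 3 and 2 at a size limit of 0.5, 1 and 1 at a limit of 1, and 6 and 1 at a share of at least 50%. They were 11 and 2 by the log2 ratio of shares, where F13a1 in cluster 13 turned to 0.037, and 10 and 3 after centring. Without clusters 12 and 13 they were 9 and 2, and with clusters 15 and 17 added 10 and 3. In other cells the 1 lower listing became 0 at a limit of 1. In fibroblast subclusters the 15 higher and 13 lower values became 4 and 3 at a size limit of 0.25, and 13 and 7 at a share of at least 10%. Centring on all listed genes lowered the median of the members in cluster 0 from 0.46 to 0.18. The value taken off, 0.28, is set largely by the size limit of 0.25, so this does not measure a shift between the libraries. The mean was 0.59 and the log2 ratio of shares 0.24. The tables give no depth or cell number per cluster and library, which limits every share.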
